A study of Mus musculus with 6 samples.

Results

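The genes followed here encode contractile and actin-binding proteins, a class that includes known targets of serum response factor (SRF). They are 10 of the 27179 genes in the table of counts: the actins Acta2 and Actg1, the myosin light chain Myl9, the transgelins Tagln and Tagln2, the calponin Cnn2, the tropomyosins Tpm1 and Tpm2, vinculin (Vcl) and filamin A (Flna). They were chosen by symbol, with earlier results of these data known, and all 10 passed the filter on low counts. RNA was sequenced from mouse embryonic stem cells (mESCs) that carry Tfe3-ERT2, a form of the transcription factor Tfe3 that moves into the nucleus when tamoxifen is given. One group of 3 libraries came from Tfe3-ERT2 cells given 4-hydroxytamoxifen (4OHT) at 1 µg/mL for 48 h. The other 3 libraries came from Tfe3-ERT2 cells given the ethanol vehicle (EtOH), for which the labels give no treatment time. Both groups were grown on gelatin with 10% serum and LIF at 1000 U/mL. Every library compared carried the fusion, so a response to 4OHT itself and a response to nuclear Tfe3 cannot be told apart. The labels name neither the strain nor the number of clones, nor whether each library had a culture of its own. The p-values therefore speak only of the spread among these libraries, which may be technical.

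Actin exists in the cell as free monomers and as filaments, and contractile force arises when myosin pulls on filaments that tropomyosins, calponins and transgelins decorate. Free actin holds the SRF partners MRTF-A and MRTF-B in the cytoplasm, and as monomers are used up these partners enter the nucleus and act with SRF on genes that carry a CArG box. In mESCs the same proteins build the cortex and the adhesions to the culture surface, while Acta2, Tagln and Myl9 are best known from smooth muscle.

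Total counts were 4648374, 5567195 and 6427880 in the 4OHT libraries and 4984364, 4384615 and 4092877 in the EtOH libraries. Levels are in CPM, counts scaled to 1000000 counts a library, and 3 counts were worth 0.469 to 0.738 CPM, depending on the library. The counts of Tfe3 pool the endogenous gene with whatever the fusion shares with it, and gave 832 ± 4.34 CPM in 4OHT and 1038 ± 35.1 CPM in EtOH (SD, n = 3 each). All 12 listed markers of mESCs were expressed, with a summed level of 6945 to 6993 CPM in 4OHT libraries and 5957 to 6054 CPM in EtOH libraries. The sum does not stand for each marker: 6 were higher in 4OHT, 3 were lower and 3 were not called (edgeR adjusted p under 0.05). Of all tested genes, 21.4% were called higher and 20.6% lower.

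The promoters of these genes are shown first because the CArG box is the feature that names the group. A window of 250 bases before and 50 bases after the RefSeq start (GRCm38.p6) was on hand for 9 of the 10 genes, Tagln being the other one. A full CArG box, searched on both strands, stood in 4 of these 9 windows, against 1.63% of all 32851 promoter windows and 1.21% of the 12360 windows of tested genes. The group is named for this box, so the count is a description only. The 4 were Actg1, Cnn2, Myl9 and Vcl, where the box began 90, 56, 161 and 227 bases before the start. The windows of Tagln2, Tpm1, Tpm2 and Flna held neither a full box nor one with 1 mismatch in its A/T run. Acta2 held no full box but carried a CArG box with 1 mismatch in its A/T run at 84 and again at 34 bases before the start, and Myl9 held another such near box at 99 bases, a form found in 8.50% of all windows and 7.59% of those of tested genes. The sequences of these 5 genes are printed 5′ to 3′ on the gene's own strand, with full and near CArG boxes in capitals. From the 250 bases before the start, those inside an exon of any GENCODE transcript of the gene were left off, and for Acta2, where such an exon covers 217 of the 250 bases, 30 bases around each near box are given. The stretches lie at chr19:34255438-34255467, minus strand and chr19:34255388-34255417, minus strand (Acta2), chr11:120348543-120348745, minus strand (Actg1), chr10:79988350-79988583, plus strand (Cnn2), chr2:156775214-156775419, plus strand (Myl9) and chr14:20929148-20929397, plus strand (Vcl).
Acta2 box at 84: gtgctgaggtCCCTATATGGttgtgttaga
Acta2 box at 34: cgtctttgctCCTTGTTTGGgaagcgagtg
Actg1: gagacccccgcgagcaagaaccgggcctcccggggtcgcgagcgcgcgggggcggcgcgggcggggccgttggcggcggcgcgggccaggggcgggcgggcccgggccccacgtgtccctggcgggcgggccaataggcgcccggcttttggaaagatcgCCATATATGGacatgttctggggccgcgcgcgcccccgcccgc
Cnn2: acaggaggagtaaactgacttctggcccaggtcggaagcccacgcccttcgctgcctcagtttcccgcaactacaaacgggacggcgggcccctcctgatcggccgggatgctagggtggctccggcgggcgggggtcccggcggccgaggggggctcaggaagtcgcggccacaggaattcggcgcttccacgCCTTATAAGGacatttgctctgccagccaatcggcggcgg
Myl9: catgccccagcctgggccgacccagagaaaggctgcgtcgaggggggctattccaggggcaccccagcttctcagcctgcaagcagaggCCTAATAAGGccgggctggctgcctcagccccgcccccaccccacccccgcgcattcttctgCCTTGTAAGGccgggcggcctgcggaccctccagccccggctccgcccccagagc
Vcl: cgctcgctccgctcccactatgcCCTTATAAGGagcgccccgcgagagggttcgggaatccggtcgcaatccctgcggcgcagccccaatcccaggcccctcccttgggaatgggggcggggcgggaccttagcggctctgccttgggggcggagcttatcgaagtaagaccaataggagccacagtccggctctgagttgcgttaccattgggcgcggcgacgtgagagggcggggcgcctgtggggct
RefSeq's ranges of Acta2, Myl9 and Vcl begin upstream of the start used for the window, so distances hold for that start alone. The E-box CACGTG, the core that Tfe3 binds, stood in 1 of the 9 windows, that of Actg1 at 141 bases before the start, against 7.15% of all windows and 10.2% of those of tested genes. The TEAD core GGAATG was in 5 windows (Acta2, Tagln2, Tpm1, Vcl and Flna), against 14.7% of all and 12.2% of those of tested genes. GGGCGG, the core bound by SP1 and KLF factors, was in 8, against 35.7% of all windows and 64.3% of those of tested genes, and TATAAA was in 0, against 13.6% of all and 6.74% of those of tested genes. A match describes the letters and is not evidence of binding.

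After 4OHT, 6 of the 10 genes were higher, 2 were lower and 2 were not called (edgeR's quasi-likelihood test, Benjamini-Hochberg adjusted p under 0.05 over all 12345 tested genes). The smooth muscle actin Acta2 was 1.97-fold higher and the light chain Myl9 4.46-fold lower, and these were the largest changes among the 10. Tagln2 rose 1.48-fold, Tagln 1.25-fold and Cnn2 1.21-fold, while Tpm1 and Vcl rose by no more than 1.10-fold and Flna was 1.10-fold lower. In bulk RNA, fewer cells of a type and less RNA per cell cannot be told apart. Over all tested genes 42.0% were called, 21.4% higher and 20.6% lower. The background rises with expression: among the 5436 tested genes with a mean of at least 40 CPM, which holds for 9 of the 10 genes, 55.9% were called, 26.5% higher and 29.4% lower. The groups were separate, with every 4OHT library above or below every EtOH library, in 9 of the 10 genes, 7 higher and 2 lower. The same held for 48.8% of all tested genes (25.1% higher, 23.7% lower) and for 60.8% of those with a mean of at least 40 CPM (29.4% higher, 31.5% lower). The median log2 fold change was 0.12 over the 10 genes and -0.0024 over all tested genes, and the sum of the 10 was 2625 to 2672 CPM in 4OHT libraries and 2493 to 2535 CPM in EtOH libraries.

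**Figure D1:**
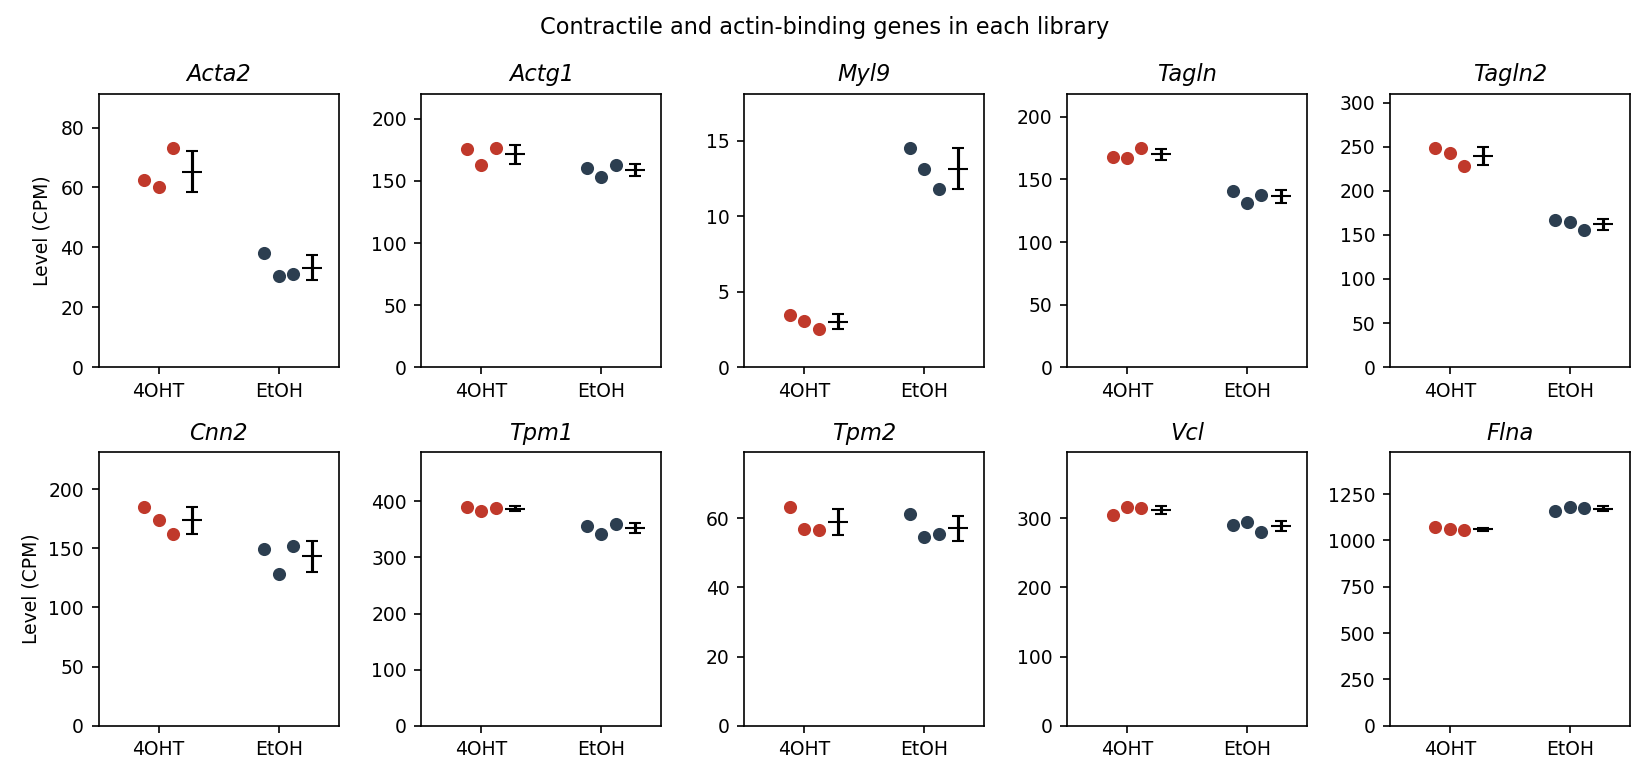
Level of each of the 10 genes in CPM (y axes start at 0), with 1 point per library, 3 libraries of 4OHT (red) and 3 of EtOH (dark), and black marks for mean and SD. Acta2 lies higher in every 4OHT library (60.2 to 73.1 CPM) than in any EtOH library (30.5 to 38.1 CPM), Myl9 lies lower, and Tpm2 is the one gene whose groups overlap.

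Acta2 encodes the actin of smooth muscle filaments (Entrez Gene 11475; chromosome 19, 34240336 to 34255585). It was at 62.5, 60.2 and 73.1 CPM in the 4OHT libraries and at 38.1, 30.5 and 31.0 CPM in the EtOH libraries. The lowest 4OHT library stood well above the highest EtOH library. The log2 fold change was 0.98 (SE 0.09, edgeR adjusted p = 1.2e-21). Its reads are hardly shared with other genes, since 0.326% of the 50-base windows of its transcripts also occur in transcripts of another gene.

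Actg1, one of the cytoplasmic actins found in every cell (chromosome 11, 120345687 to 120348495), was at 176, 163 and 176 CPM in 4OHT and at 160, 153 and 163 CPM in EtOH. The groups did not overlap, though by a narrow margin, and the gene was not called (log2 fold change of 0.11 with SE 0.05, edgeR adjusted p = 0.0505). The call turned under 2 of 15 alternatives: it passed at an adjusted p of 0.0101 without 4OHT replicate 2, and at 0.0465 with a filter of 1 CPM in 3 libraries. Under the other 13 the gene was not called, with adjusted p of 0.197 by DESeq2 and 0.203 by edgeR without EtOH replicate 2. Its counts are uncertain, because 37.4% of its 50-base windows also occur in transcripts of other gene models, led by Gm12715 with 33.2%, and the handling of reads that match several places is not given in the sources used here.

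Among the other actins, the skeletal muscle form Acta1 rose to 32.6 ± 2.11 CPM in 4OHT, against 19.5 ± 2.08 CPM in EtOH (1.65-fold, edgeR adjusted p = 2.9e-08). Actb, the main cytoplasmic actin, was 1.06-fold lower, at 2735 ± 10.1 CPM in 4OHT and 2902 ± 95.8 CPM in EtOH (edgeR adjusted p = 0.0057, but 0.108 once EtOH replicate 1 was left out). The remaining muscle actins were near 0: Actc1 had 0, 0 and 1 counts in 4OHT and 3, 0 and 2 in EtOH, and Actg2 had 0, 2 and 3 counts in 4OHT and 2, 4 and 1 in EtOH. The muscle actins that rose were the pair with counts well above 0. In counts per base summed over 6 actin genes, Actb made up 90.6 ± 0.333% in 4OHT and 92.9 ± 0.202% in EtOH. The share of Acta2 was 2.29 ± 0.236% in 4OHT and 1.13 ± 0.115% in EtOH, and that of Acta1 1.42 ± 0.0961% in 4OHT and 0.824 ± 0.0714% in EtOH (SD, n = 3 each). These shares take the counts as given. They may miss reads of Actg1, for which 37.4% of 50-base windows also occur in other gene models, against 9.12% for Actb.

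Myl9 encodes a regulatory light chain of smooth muscle and non-muscle myosin (Entrez Gene 98932; chromosome 2, 156775408 to 156781657). It had 16, 17 and 16 counts in the 4OHT libraries and 72, 58 and 48 counts in the EtOH libraries, which is 3.47, 3.07 and 2.50 CPM in 4OHT and 14.5, 13.1 and 11.8 CPM in EtOH. Every 4OHT library was far below every EtOH library. The log2 fold change was -2.16 (SE 0.23, edgeR adjusted p = 6.7e-17), and it lay between -2.25 and -2.02 when any 1 library was left out. Its promoter holds a full and a near CArG box.

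The related light chains were not lower. Myl12a, a non-muscle regulatory light chain, was at 148 ± 5.69 CPM in 4OHT and 133 ± 3.96 CPM in EtOH and was called higher (edgeR adjusted p = 0.0104), but not without 4OHT replicate 2 (0.0668), without EtOH replicate 2 (0.073) or with DESeq2 (0.0836). Myl12b, its neighbour on chromosome 17, was at 214 ± 4.73 CPM in 4OHT and 206 ± 4.34 CPM in EtOH (not called, edgeR adjusted p = 0.387). These neighbours share 50-base windows, 16.2% of those of Myl12a with Myl12b, so reads may be split between them. The essential light chain Myl6 rose 1.14-fold (edgeR adjusted p = 0.0013). Among the heavy chains, Myh9, the non-muscle myosin IIA chain, rose to 1136 ± 14.1 CPM in 4OHT, against 650 ± 14.2 CPM in EtOH (1.75-fold, edgeR adjusted p = 2.2e-67). Myh10, the IIB chain, was at 270 ± 12.4 CPM in 4OHT and 258 ± 7.24 CPM in EtOH and did not pass the test (log2 fold change of 0.07, edgeR adjusted p = 0.178).

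The transgelins are small proteins that bundle actin filaments. Tagln, or SM22-alpha (chromosome 9, 45929628 to 45936058), was at 168, 167 and 175 CPM in 4OHT and at 141, 131 and 137 CPM in EtOH. Tagln2 (chromosome 1, 172500246 to 172507375), the form common outside muscle, was at 248, 242 and 229 CPM in 4OHT and at 166, 164 and 155 CPM in EtOH. Both rose with a clear gap between the groups, Tagln with a log2 fold change of 0.32 (SE 0.05, edgeR adjusted p = 1.2e-08) and Tagln2 with 0.56 (SE 0.05, edgeR adjusted p = 3.5e-25). The exons of Tagln are crowded: the antisense model Gm48529 covers 62.4% of their bases and Pcsk7, a convertase gene on the opposite strand, 5.43%. Because the strand setting of the counting is not given, reads of Tagln and of its antisense partners cannot be told apart. Pcsk7 itself was at 24.6 ± 1.10 CPM in 4OHT and 18.6 ± 2.06 CPM in EtOH (1.31-fold higher by edgeR, adjusted p = 0.0086, a call lost at 0.0739 without EtOH replicate 3 and at 0.0617 with DESeq2). Its part in the value of Tagln was not tested. Tagln3, a form known from neurons, was called higher from a low level, 4.71 ± 0.608 CPM in 4OHT and 2.65 ± 1.13 CPM in EtOH (edgeR adjusted p = 0.021), a call lost without 4OHT replicate 2 (0.0813), EtOH replicate 1 (0.108) or EtOH replicate 2 (0.132) and with DESeq2 (0.118).

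Calponins bind actin and hold back myosin's ATPase. Cnn2, the form of non-muscle cells (chromosome 10, 79988600 to 79995400), was at 185, 174 and 162 CPM in 4OHT and at 149, 128 and 152 CPM in EtOH. The libraries of both groups spread more than for the other genes at this level, yet did not overlap, and the log2 fold change was 0.27 (SE 0.05, edgeR adjusted p = 1.7e-06). Its relatives went in opposite directions. The acidic form Cnn3 rose to 695 ± 17.0 CPM in 4OHT, against 410 ± 3.66 CPM in EtOH (1.69-fold, edgeR adjusted p = 6.9e-56), and the smooth muscle form Cnn1 fell to 6.98 ± 0.350 CPM in 4OHT, against 12.9 ± 1.38 CPM in EtOH (1.85-fold lower, edgeR adjusted p = 2.3e-05). The counts of Cnn3 are less certain, because 24.0% of its 50-base windows also occur in transcripts of other gene models. One of these, Gm42928 on the opposite strand, covers 17.7% of its exon bases.

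Tropomyosins lie along the filament and set which myosins and severing proteins reach it. Tpm1 (chromosome 9, 67022590 to 67049672) was at 390, 382 and 388 CPM in 4OHT and at 355, 342 and 360 CPM in EtOH. The difference was small against a tight spread, a log2 fold change of 0.13 (SE 0.04, edgeR adjusted p = 0.0025). Tpm2 (chromosome 4, 43513726 to 43523583) was at 63.4, 57.0 and 56.7 CPM in 4OHT and at 61.2, 54.7 and 55.4 CPM in EtOH. Its groups overlapped and it was not called (log2 fold change of 0.04, SE 0.08, edgeR adjusted p = 0.746), with a sign that turned without 4OHT replicate 1 (-0.0080). The other tropomyosins, Tpm3 and Tpm4, were called higher by 1.08-fold and 1.13-fold (edgeR adjusted p = 0.0109 and 0.0012), and Tpm3 not without 4OHT replicate 3 (0.0581). Of the 50-base windows of Tpm3, 23.2% also occur in transcripts of other gene models, and of those of Tpm4, 15.7%. Counts per gene pool the many spliced forms of each tropomyosin, muscle and non-muscle alike.

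Vinculin links actin to integrin and cadherin adhesions. Vcl (chromosome 14, 20929383 to 21033676) was at 305, 317 and 315 CPM in 4OHT and at 290, 294 and 280.5 CPM in EtOH. The libraries separated by a small gap, with a log2 fold change of 0.11 (SE 0.04, edgeR adjusted p = 0.0156). The call was lost without EtOH replicate 3 (0.0852) and with DESeq2 (adjusted p = 0.069). The adaptor gene Ap3m1 on the opposite strand covers 25.5% of the exon bases of Vcl; it was at 85.6 ± 6.54 CPM in 4OHT and 88.9 ± 1.23 CPM in EtOH and did not pass (log2 fold change of -0.06, edgeR adjusted p = 0.47).

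Filamins crosslink filaments into networks and carry signals from integrins. Flna, on chromosome X (74223461 to 74249854), had 1070, 1060 and 1054 CPM in 4OHT and 1159, 1182 and 1175 CPM in EtOH. The libraries of each group lay close together, and every 4OHT library was below every EtOH library (log2 fold change of -0.14, SE 0.03, edgeR adjusted p = 2.7e-05). Its muscle paralogue went the other way: Flnc rose to 182 ± 6.68 CPM in 4OHT, against 128 ± 2.68 CPM in EtOH (1.43-fold, edgeR adjusted p = 4.4e-19).

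**Figure D2:**
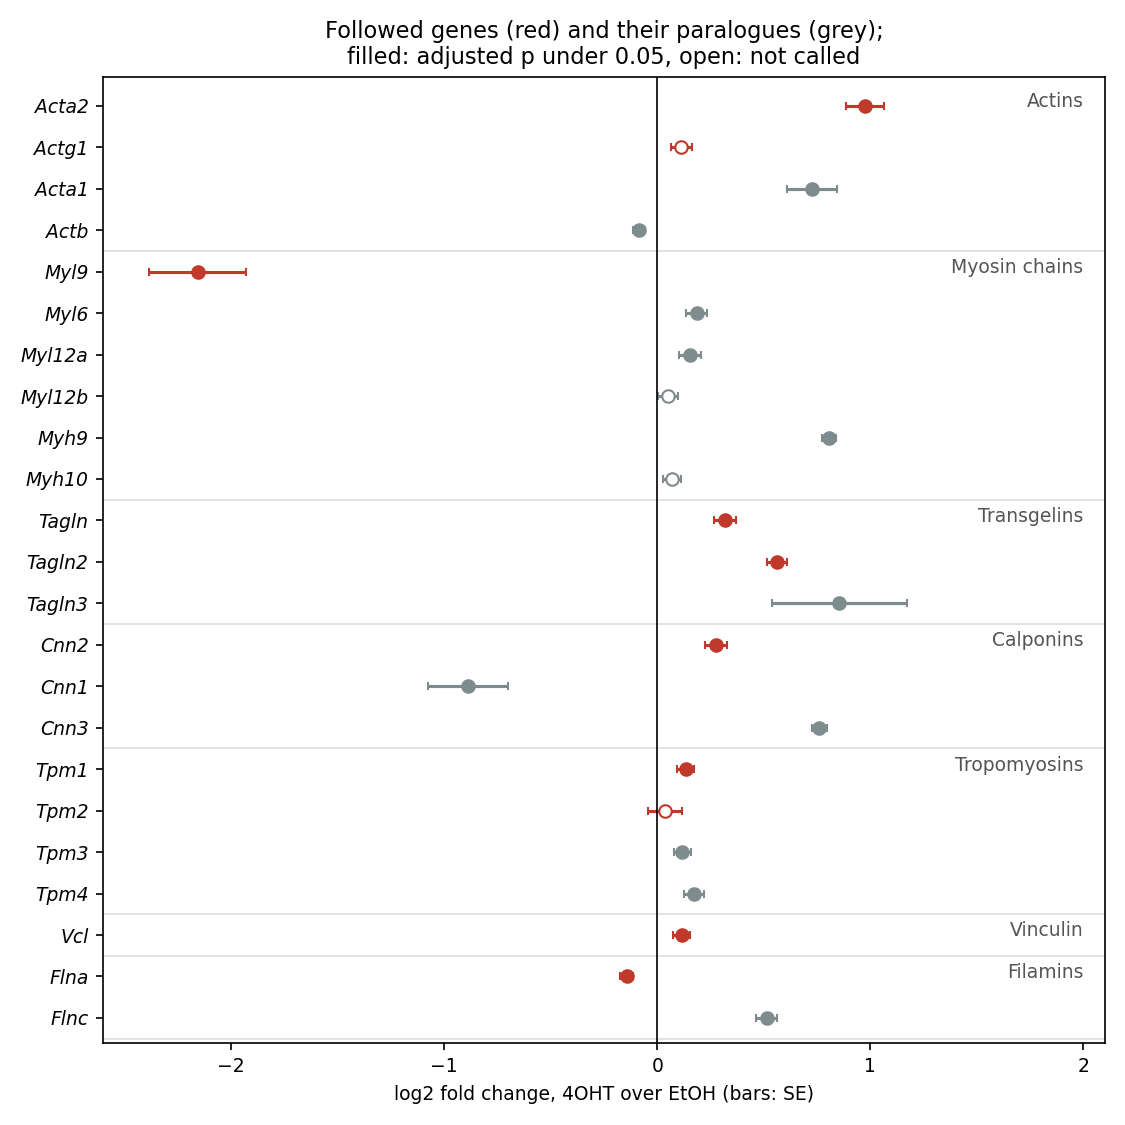
Log2 fold change of 4OHT over EtOH (x axis) with its SE for the 10 genes (red) and their paralogues (grey), by protein family; filled points passed an edgeR adjusted p of 0.05 and open points did not. Myl9 (-2.16) and Cnn1 (-0.89) lie far to the left, Flna and Actb just left of 0, and Acta2 (0.98) is the rightmost of the 10.

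Set side by side per length, the 10 genes changed order. In 4OHT, Tagln2 was highest at 174 ± 7.28 CPM per kilobase of gene length, ahead of Flna at 127 ± 0.992. In EtOH, Flna was highest at 140 ± 1.40 CPM per kilobase, ahead of Tagln2 at 117 ± 4.38 (SD, n = 3 each). Tpm1 and Tagln followed in both groups, at 118 ± 1.26 and 107 ± 2.70 CPM per kilobase in 4OHT and 108 ± 2.90 and 86.0 ± 3.05 in EtOH. Cnn2 and Actg1 came next and their ranges overlapped in both groups, and in EtOH the range of Tagln also overlapped that of Actg1. Vcl was seventh in both, at 59.7 ± 1.20 CPM per kilobase in 4OHT and 55.1 ± 1.35 in EtOH. Acta2 stood above Tpm2 in 4OHT, at 36.7 ± 3.86 against 28.1 ± 1.80 CPM per kilobase, and below it in EtOH, at 18.6 ± 2.37 against 27.2 ± 1.71. Myl9 was last, at 2.78 ± 0.451 CPM per kilobase in 4OHT and 12.1 ± 1.24 in EtOH. All other neighbours in either order had ranges that did not overlap. The places of Actg1 and Tagln are less certain, because 37.4% and 58.3% of their 50-base windows also occur in transcripts of other gene models.

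Ratios of paralogues within a library, which do not depend on how libraries are scaled, put numbers on these shifts. With 3 libraries against 3, the exact two-sided permutation test over libraries cannot go below 0.1, so no ratio could pass 0.05. In counts per base, Acta2 per Actg1 was 0.378, 0.394 and 0.441 in 4OHT and 0.253, 0.212 and 0.203 in EtOH. Acta2 was thus below Actg1 in all 6 libraries, by less in 4OHT (log2 difference 0.86, exact permutation p = 0.1, adjusted p = 0.12 over 6 ratios). Cnn2 per Cnn3 was 0.281 ± 0.0206 in 4OHT and 0.392 ± 0.0349 in EtOH, and Tagln per Tagln2 was 0.619 ± 0.0415 in 4OHT and 0.735 ± 0.0390 in EtOH (SD, n = 3 each). Actg1 per Actb was 0.0626 ± 0.00269 in 4OHT and 0.0546 ± 0.00297 in EtOH. These 4 ratios separated the groups without overlap, each with the same exact permutation p. Tpm1 per Tpm2 did not, at 4.20 ± 0.230 in 4OHT and 3.96 ± 0.229 in EtOH (exact permutation p = 0.3, adjusted p = 0.3). The sizes of ratios with Actg1, Tagln or Cnn3 are uncertain, since the handling of reads that match several places is not given. Of their 50-base windows, 37.4%, 58.3% and 24.0% also occur in transcripts of other gene models, against 9.12% for Actb.

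**Figure D3:**
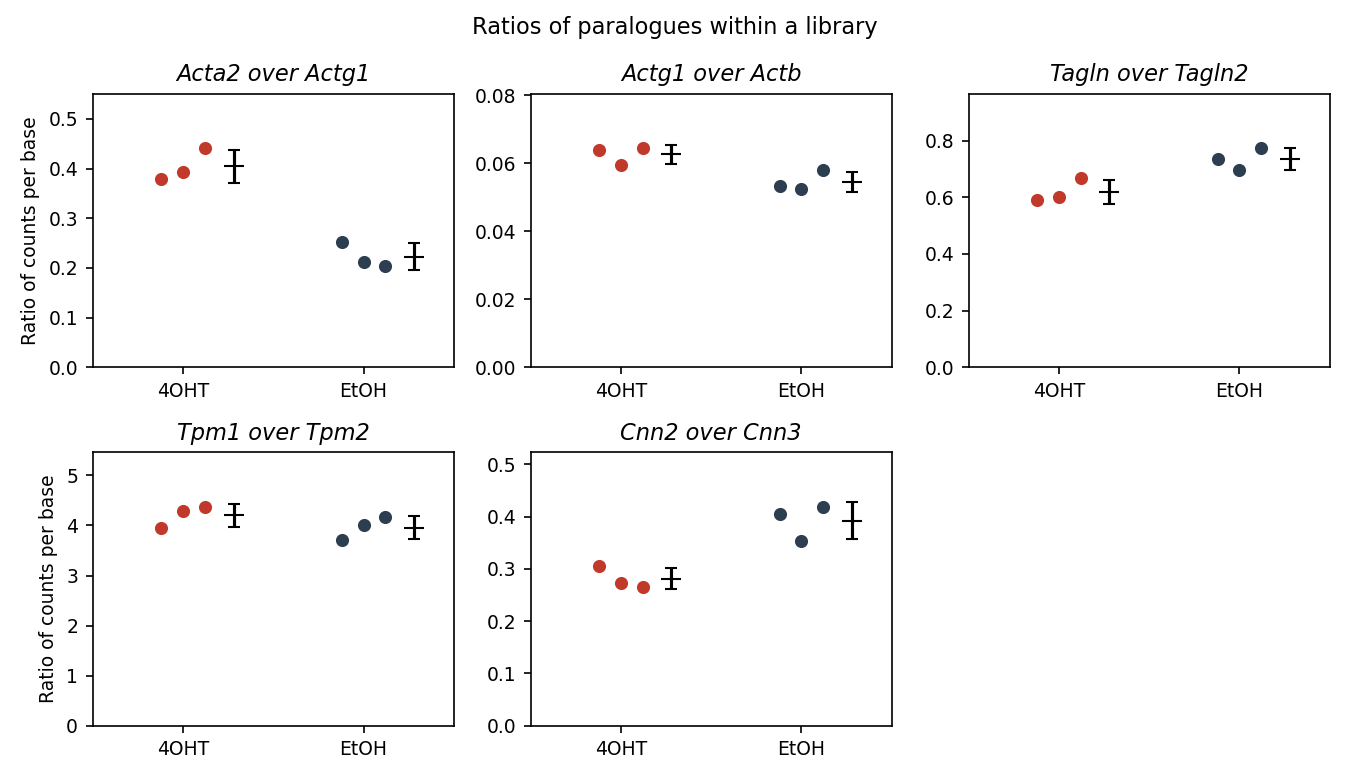
Ratio of counts per base of 5 pairs of paralogues within each library (y axes start at 0), 3 libraries of 4OHT (red) and 3 of EtOH (dark), with mean and SD in black. Acta2 over Actg1 is higher in every 4OHT library, Tagln over Tagln2 and Cnn2 over Cnn3 are lower, and Tpm1 over Tpm2 overlaps.

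Around these genes, 107 further genes of the actin and SRF pathway were listed in 7 groups, and of the 95 tested 52 were higher and 16 lower in 4OHT, a share of 71.6% called, against 42.0% of all tested genes (21.4% higher, 20.6% lower), with a median log2 fold change of 0.19. At a mean of at least 40 CPM, 41 of 65 pathway genes were higher and 10 lower, 78.5% called, against 55.9% of all genes at that level (26.5% higher, 29.4% lower). The counts of the single lists below stand against the same shares. These lists, like the 10 genes, were chosen with earlier results of these data known, so their shares are a description only. The regulators of the axis were mixed: of 21 tested, 10 were higher and 5 lower (median 0.15). Srf itself, whose protein binds CArG boxes, fell to 59.3 ± 4.74 CPM in 4OHT, against 79.7 ± 2.59 CPM in EtOH (1.35-fold lower, edgeR adjusted p = 6.1e-08). Mrtfb, encoding MRTF-B, rose to 40.05 ± 2.53 CPM in 4OHT, against 29.6 ± 1.96 CPM in EtOH (1.35-fold, edgeR adjusted p = 0.00013). Mrtfa, encoding MRTF-A, was at 31.7 ± 3.07 CPM in 4OHT and 35.4 ± 7.28 CPM in EtOH and did not pass (log2 fold change of -0.19, edgeR adjusted p = 0.146). That value rested on EtOH libraries, being 0.0088 without EtOH replicate 1 and -0.29 with an adjusted p of 0.0272 without EtOH replicate 2. Limk2, a kinase that restrains the severing protein cofilin, rose 1.56-fold (edgeR adjusted p = 2.7e-30), and Fhl2, a LIM protein that binds SRF, rose 3.46-fold to 9.01 ± 0.106 CPM in 4OHT, against 2.63 ± 1.05 CPM in EtOH (edgeR adjusted p = 1.4e-09).

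Of 25 tested crosslinkers and partners at cell adhesions, 15 were higher and 2 lower (median log2 fold change 0.24), where 21.4% of all tested genes were higher and 20.6% lower. The LIM protein gene Fhl1 rose to 124 ± 5.52 CPM in 4OHT, against 55.9 ± 7.08 CPM in EtOH (2.23-fold, edgeR adjusted p = 1.3e-41). Caldesmon (Cald1), which like calponin damps actomyosin, rose 1.60-fold, and talin-1 (Tln1), which joins integrins to vinculin, 1.52-fold (edgeR adjusted p = 8.2e-34 and 1.3e-33). Of 15 tested genes of filament turnover 8 were higher and 2 lower (median 0.19). The severing and capping protein gelsolin (Gsn) rose to 126 ± 3.10 CPM in 4OHT, against 35.6 ± 1.65 CPM in EtOH (3.54-fold, edgeR adjusted p = 6.9e-67), the capping subunit gene Capzb rose 1.20-fold (edgeR adjusted p = 3.6e-09), and destrin (Dstn), which depolymerises filaments, was 1.29-fold lower (edgeR adjusted p = 9.0e-21).

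Of 12 tested myosin chains and their regulators, 5 were higher and 3 lower (median 0.06). Ppp1r12a, the targeting subunit of the phosphatase that switches light chains off, rose 1.21-fold (edgeR adjusted p = 1.8e-05), and Ppp1r14b, an inhibitor of that phosphatase, was 1.34-fold lower with groups that overlapped (edgeR adjusted p = 0.00023, and 0.0512 with DESeq2). Genes often read as MRTF-SRF or YAP targets numbered 7 higher and 2 lower of 13 tested (median 0.38). Ccn1, a matricellular gene, rose to 126 ± 6.38 CPM in 4OHT, against 75.3 ± 1.90 CPM in EtOH (1.67-fold, edgeR adjusted p = 1.3e-24), and its relative Ccn2 rose to 125 ± 2.43 CPM in 4OHT, against 80.5 ± 3.49 CPM in EtOH (1.55-fold, edgeR adjusted p = 5.6e-20). Of 7 tested relatives of the calponins, transgelins, tropomyosins and filamins, 6 were higher and 1, Cnn1, lower, and of the 2 tested other actins 1 was higher and 1 lower.

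**Figure D4:**
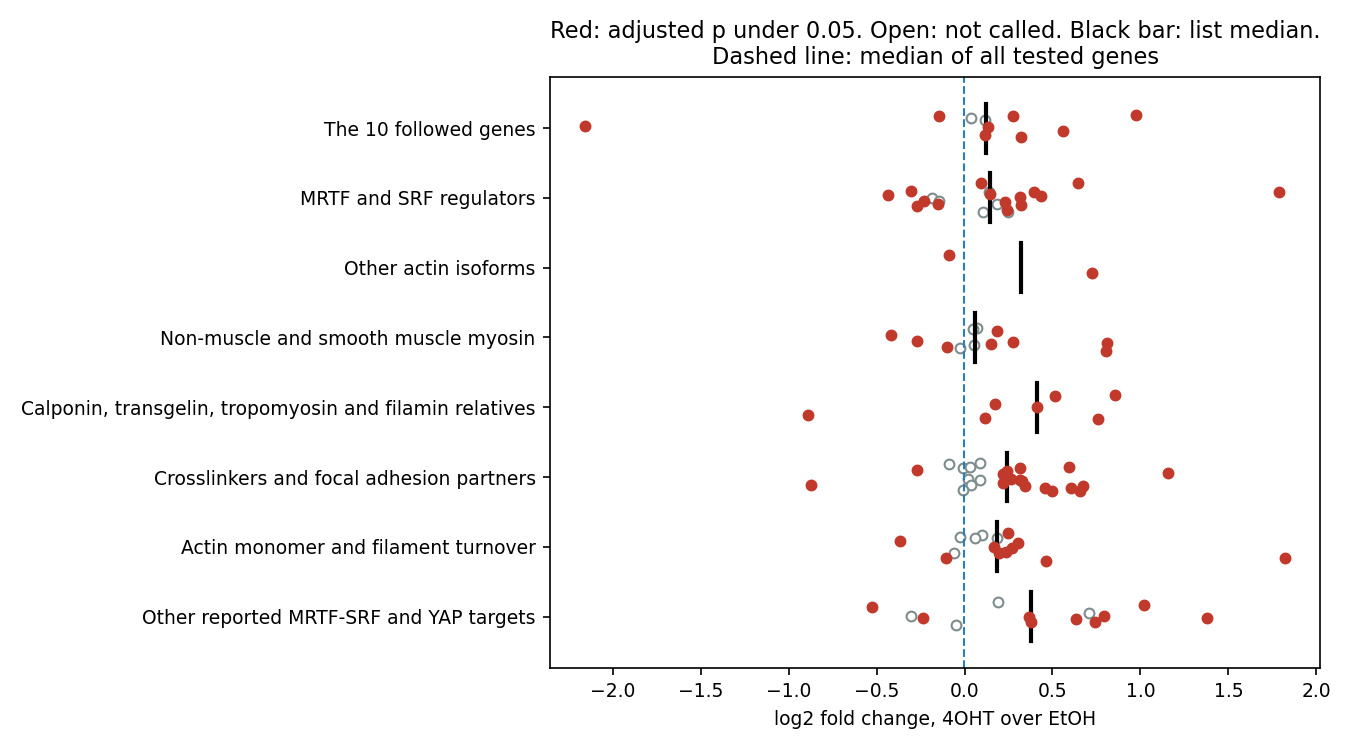
Log2 fold change of 4OHT over EtOH (x axis) for every tested gene of the 10 followed and of 7 pathway lists (rows); red points passed an edgeR adjusted p of 0.05, open points did not, black bars are list medians and the dashed line is the median of all tested genes (-0.0024). The list medians lie between 0.06 and 0.41, right of the dashed line, and every list holds called genes on both sides of 0.

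Markers of other cells that carry these proteins were read as lists. The 10 smooth muscle markers summed to 79.7 to 87.0 CPM in 4OHT libraries and 80.7 to 86.6 CPM in EtOH libraries, with overlap, and of 5 tested 1 was higher (Des, 1.34-fold, edgeR adjusted p = 0.0377, lost when any 1 of 5 libraries was left out, with adjusted p of 0.0564 to 0.165, and with DESeq2) and 1 lower (Cnn1). The highest of them was smoothelin (Smtn), at 52.7 ± 1.04 CPM in 4OHT and 49.6 ± 1.46 CPM in EtOH, which was not called. The defining Myh11 had 2, 3 and 3 counts in 4OHT and 4, 1 and 1 in EtOH, and Myocd 0, 0 and 1 in 4OHT and 1, 1 and 0 in EtOH. The 12 fibroblast markers summed to 24.7 to 28.9 CPM in 4OHT and 17.7 to 27.6 CPM in EtOH, and Lum had no count. Of the 4 tested, 0 were called by edgeR, DESeq2 or limma-voom, and an unadjusted p under 0.05 was given to 1 (Col1a2) by edgeR and to 0 by DESeq2. Col1a2 was also the 1 of the 4 whose groups did not overlap, higher in 4OHT, as in 25.1% of all tested genes. The other 8 had too few counts for the test, so the list cannot show that fibroblast markers were unchanged. The 8 early mesoderm markers summed to 13.9 to 17.3 CPM in 4OHT and 11.1 to 13.5 CPM in EtOH, and Hand2 had no count. This sum does not stand for each marker, since Eomes made up most of it in 4OHT and 6 had too few counts for the test. Of 2 tested, Eomes was higher, at 13.1 ± 1.98 CPM in 4OHT and 4.97 ± 0.268 CPM in EtOH, and the Brachyury gene T was lower, with 0, 5 and 4 counts in 4OHT and 22, 25 and 16 counts in EtOH (edgeR adjusted p = 1.1e-09 for both). The part of such cells in the values above was not tested.

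By pattern over the 6 libraries, the genes most like Acta2 among 11390 other genes averaging a log2 CPM of 2 or more were Arpc2 (Pearson r of log2 CPM 0.9985), Hmox1 (0.9985) and Ppm1b (0.9982). Those most like Myl9 were Ranbp1 (0.9993), Ptma (0.9982) and Parp2 (0.9976). Such values are a description: with 2 groups of 3 libraries that differ, 646 genes reached an r of 0.95 with Acta2 and 668 with Myl9, and the points share depth and treatment. The likeness is of pattern and not of size, since the log2 fold changes were 0.26, 0.31 and 0.26 for the genes most like Acta2 and -0.33, -0.32 and -0.30 for those most like Myl9.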

How the data were processed

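The authors deposited raw counts per gene for 6 libraries, 1 column each, with a gene length (other values: bases) beside each gene. Libraries were made with a TruSeq stranded mRNA kit, per the labels' protocols. The submitters' processing notes list fastp, STAR, featureCounts and mm10 without roles or versions; the sources used here do not give the annotation, the strand setting or the multi-mapping rule.

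Of 27179 rows, 1314 had an Entrez ID but no symbol and stayed in the tests. edgeR's filterByExpr (count 10, summed count 15) kept 12345 genes. Counts were scaled by TMM and fitted with edgeR 4.0.16 (robust quasi-likelihood, group only) in R 4.3.3, and p-values were adjusted by Benjamini-Hochberg across the 12345. Fold changes are unshrunk coefficients, and their size divided by the square root of F gives the SE. CPM uses TMM-scaled library sizes, also for the worth of 3 counts. Positions and promoters are RefSeq's (GRCm38.p6), exon overlaps and 50-base windows GENCODE vM21's, also GRCm38. Libraries of a group differed by more than counting error (chi-square per degree of freedom 1.40 to 2.99). Alternatives included DESeq2 1.42.0 and limma-voom 3.58.1, other scaling and filters, a replicate block and leaving out each library; the steps were tested on simulated data. The mean of 40 CPM used for a second background was set after the values were seen, for the 10 genes and for the pathway lists. Named were the 10 genes, their paralogues, Srf, Mrtfa and Mrtfb, up to 3 called genes of smallest p per list, and 3 most alike genes each for the largest rise and fall, though 2 genes this rule names, and 1 of the 6 ratios, are not reported here; Des, the marker genes T, Eomes, Smtn, Myh11, Myocd, Lum, Hand2 and Col1a2, and the overlapping genes Pcsk7 and Ap3m1 were chosen after their values were seen. The genes and lists were chosen with earlier results of these data known. Plots were made with Python 3.11.15 and matplotlib 3.10.9.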

Additional observations from a re-analysis of the deposited data

How the results depend on the processing

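Results on the 10 genes and the counts of called genes were recomputed under 15 alternatives, 6 of which leave out 1 library. Other genes that were recomputed had 14, without the threshold of 0.01, and the ratios had 7. Acta2, Tagln, Tagln2, Cnn2, Myl9, Tpm1 and Flna kept their direction and their call under all 15, and the 6 ratios kept their direction under all 7. Vcl was no longer called with DESeq2 (log2 fold change 0.11, adjusted p = 0.069) or at a threshold of 0.01 (0.11, adjusted p = 0.0156), and its log2 fold change was 0.10 to 0.13 without 1 library. Actg1 was called with a filter of 1 CPM in 3 libraries (0.12, adjusted p = 0.0465) and without 4OHT replicate 2 (0.15, adjusted p = 0.0101), but not under the other 13. Its log2 fold change was 0.090 to 0.15 without 1 library. Tpm2 was at -0.0080 without 4OHT replicate 1 and between that and 0.094 over the libraries left out. Mrtfa was at 0.0088 without EtOH replicate 1 and at -0.29 without EtOH replicate 2. The lower genes of the pathway lists numbered 10 with DESeq2, against 16, and 11 to 14 when any 1 library was left out. The higher ones numbered 46 to 50 without 1 library, against 52. Over all tested genes, leaving out 1 library gave 2306 to 2544 higher and 2129 to 2407 lower. The cause of these drops was not tested. With the replicate number as a block, 2585 genes were higher and 2497 lower, against 2643 and 2546, and no call among the 10 genes changed. The labels do not say that a replicate number marks a shared culture, so the numbers were not treated as pairs. Same-numbered libraries of the groups did not deviate together (r between -0.0226 and -0.016). Counting error is part of each deviation, so this r cannot tell whether cultures were shared. Scaling by DESeq2's size factors moved the median of all tested genes by -0.0035 on the log2 scale. Among the 10 genes, depth limits Myl9 most (16 to 72 counts a library), and muscle and mesoderm markers with fewer counts are limited further.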
